A study of Homo sapiens with 12 samples.

Results

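The comparison described here sets HaCaT cells carrying a short hairpin RNA against UTX (shUTX) directly against HaCaT cells carrying a hairpin against MLL1 (shMLL1), without the control hairpin in the fit. HaCaT is an immortalised line of human keratinocytes, the main cells of the epidermis. Its members are 6 of the 12 RNA-seq libraries of the series, chosen by their labels: 3 shUTX libraries and 3 shMLL1 libraries. Each derivative was sequenced once untreated, once after 24 h with 100 µM hydrogen peroxide (H2O2) and once after 24 h with 25 µg/mL cerium oxide nanoparticles (CeO2). The other 6 libraries, of shNRF2 cells (hairpin against NRF2) and of shControl cells (labelled wild type in genotype), went through the same 3 treatments and serve here as a description only. All 12 are total RNA of HaCaT cells, grown in the same medium. There was 1 library for each combination, so the 3 libraries of a derivative differ in treatment and treatment was kept as a block. Each derivative is a single line, and the labels do not say whether it is a clone or a pool, so the hairpin and any other trait of the line cannot be told apart. The labels do not state separate cultures either, and p-values measure the spread among these libraries, which may be technical.

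MLL1 and UTX are enzymes that act on histone H3 near genes. MLL1, encoded by KMT2A, adds methyl groups to lysine 4, a mark of active promoters, and UTX, encoded by KDM6A on the X chromosome, removes methyl groups from lysine 27, a mark laid down by Polycomb complexes. UTX is also a subunit of complexes with the related methyltransferases MLL3 and MLL4, and both enzymes are known as regulators of developmental genes. Total counts of the 12 libraries ran from 5388335 to 7670446, and the mitochondrial genome took 8.31%, 8.72% and 8.20% of counts in untreated, H2O2 and CeO2 shUTX libraries, against 8.99%, 8.18% and 7.58% in shMLL1 libraries. Names and reads match only on 5 chromosome stretches and the mitochondrial genome, which hold 1587 of 61498 entries and 535 protein-coding genes, and genes are named only there unless the text says otherwise. Of these matched entries 463 passed the filter of at least 1 CPM (counts per 1e+06 reads counted in a library) in at least 3 of the 6 libraries. The other 1124, of which 167 are protein-coding, were not tested. Levels below are CPM in the order untreated, H2O2, CeO2, and log2 changes are shUTX over shMLL1 from the edgeR quasi-likelihood fit with its standard error (SE), where a positive value means higher in shUTX.

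The entries named for the targeted genes were looked at first. Both lie outside the matched stretches, where names and reads do not match in general, so what their reads stand for is uncertain. KMT2A (chromosome 11, 118436464 to 118526832) had 317, 339 and 291 CPM in shUTX libraries, against 32.0, 99.7 and 35.6 CPM in shMLL1 libraries. It was 6.47-fold higher in shUTX (log2 2.69 ± 0.15 SE, edgeR adjusted p = 3.2e-14), and the groups did not overlap. The H2O2 library of shMLL1 held about 3 times the KMT2A level of the other 2. The shControl mean, 480 CPM, lay above both derivatives. KDM6A (chromosome X, 44873177 to 45112602) was near the floor, with 1, 0 and 1 counts in shUTX libraries against 5, 4 and 4 counts in shMLL1 libraries. The ratio of the summed counts, 2 against 13, was 0.167 (95% exact binomial interval 0.0183 to 0.739, counting error only), and the entry did not pass the filter.

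Of 10015 entries tested, 2955 (29.5%) differed between shUTX and shMLL1 at an adjusted p of 0.05, 1469 higher (14.7%) and 1486 lower (14.8%) in shUTX. In the matched part, 232 of 463 entries were called, 124 higher and 108 lower, and 230 of the 232 had the same sign in all 3 treatments. At least a 2-fold change was seen in 25 of the higher and 32 of the lower entries. The 3 libraries of each derivative did not overlap for 283 matched entries, against 39.7% of all entries. DESeq2 called 1522 entries (165 matched), and a fit to all 12 libraries called 1969 (181 matched).

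On chromosome 5 up to RICTOR most tested entries were higher in shUTX than in shMLL1. From the start of the stretch to RICTOR (GRCh38 chromosome 5, ending at 39074408, with SDHA as its first gene), 72 of 100 tested entries were called higher and 4 lower, against 14.7% and 14.8% of all entries. The median log2 change there was 0.64, or 1.56-fold, with quartiles of 0.34 and 0.84 and 89 entries above 0. Over all entries the median was 0.01. The medians by treatment were 0.60 untreated, 0.61 with H2O2 and 0.65 with CeO2. From FYB1 to the end of the stretch (from 39105255) it was not seen: 7 of 32 entries were called higher and 10 lower, with a median of -0.17. The medians of the other stretches were 0.07 on chromosome 9 (97 entries), -0.14 on chromosome 11 (36 entries), 0.07 on chromosome 18 (32 entries) and -0.18 on chromosome 19 (150 entries). On chromosome 11, 12 entries were called lower and 1 higher, and on chromosome 19, 55 lower and 7 higher. The break at RICTOR was placed after the values were seen, and no test was made of it.

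**Figure D1:**
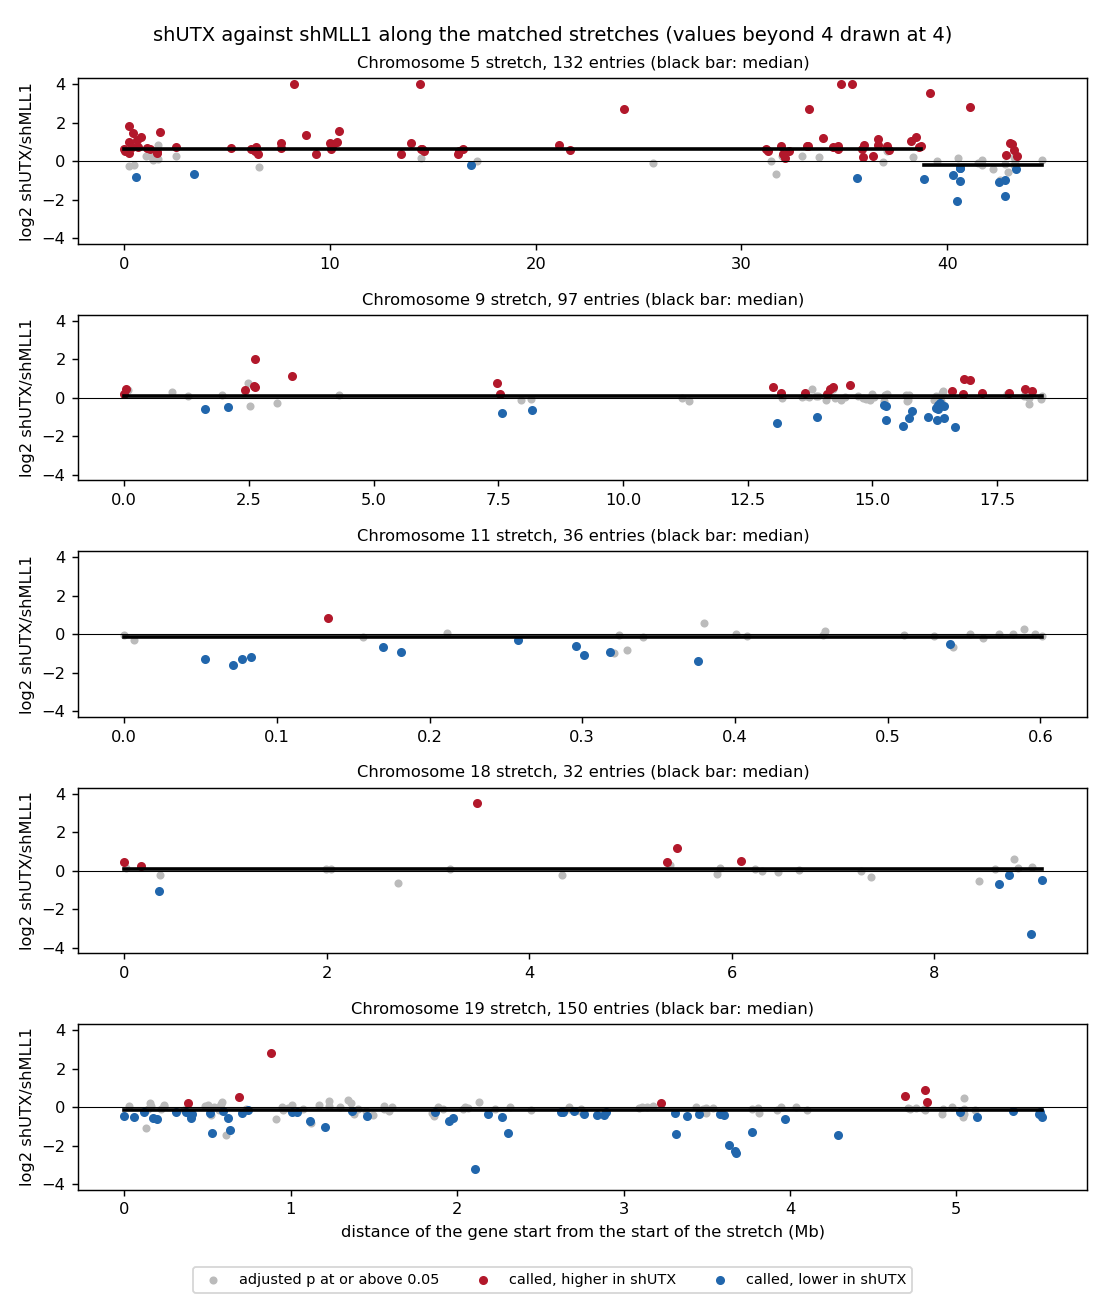
Log2 change of each tested entry, shUTX over shMLL1, against the distance of its start from the start of its stretch in Mb, 1 panel per chromosome stretch. Black bars are medians, and the points of chromosome 5 lie around 0.64 up to RICTOR and around -0.17 after it.

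SDHA, a subunit of respiratory complex II, had 650, 710 and 696 CPM in shUTX libraries, against 441, 450 and 473 CPM in shMLL1 libraries. CCT5, a subunit of the chaperonin that folds actin and tubulin, had 3137, 2953 and 3166 CPM in shUTX libraries, against 2141, 1995 and 2120 CPM in shMLL1 libraries. These groups do not overlap, and their log2 changes, 0.64 ± 0.07 and 0.62 ± 0.06, are close to the median of the segment. With the median of each stretch removed they became -0.001 and -0.0275, and neither was called. RICTOR, a subunit of mTOR complex 2, was the last gene with the pattern (0.77 ± 0.08, adjusted p = 2.64e-08), and its neighbour OSMR, a receptor subunit for oncostatin M, was at 0.72 ± 0.07. FYB1, an adaptor protein known from T cells that follows RICTOR, was lower in shUTX (-0.94 ± 0.07). The 4 genes of the segment called lower were IL7R, IRX1, BASP1 and ZDHHC11 (-0.20 to -0.86), of which BASP1 lost its call under 13 of 19 settings, and the protein-coding genes not called were IRX4, PDZD2, TERT, IRX2-DT, CPLANE1, ZDHHC11B and AMACR, with log2 changes of -0.04 to 0.83. IRX2-DT and ZDHHC11B carry that type in the annotation used.

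Set beside the libraries that were not fitted, it was shMLL1 that lay low on this segment. Among its 80 entries with a mean of at least 5 CPM over the 6 libraries, the median log2 ratio to shControl (of mean CPM plus 0.5) was 0.12 in shUTX, -0.46 in shMLL1 and 0.00 in shNRF2. Among 300 other matched entries it was -0.10, 0.03 and -0.05 in these derivatives. All 3 shMLL1 libraries lay below every one of the other 9 libraries for 55 of the 100 tested entries, against 3.2% of all entries and 1.38% of the other matched ones. All 3 shUTX libraries lay above the other 9 for 21 of the 100, against 6.29% of all entries. The reverse, shMLL1 above the other 9, was seen for 0 of the 100, against 3.55% of all entries, and shUTX below the other 9 for 3, against 10.7%. The segment is poorer in GC and its transcripts somewhat longer than those of the other stretches (medians of 48.3% and 2370 bases, against 57.0% and 2031 bases). Within coding transcripts of 45.16% to 56.55% GC the median log2 change was 0.64 on the segment (29 genes), 0.08 on chromosome 9 (33 genes) and -0.12 on chromosome 19 (8 genes). On the segment it was 0.66 below that range (29 genes), 1.135 at 56.6% to 62.82% GC (4 genes) and 0.20 above it (4 genes). Off the segment the medians also differed with GC. On chromosome 9 the median was 0.13 at 34.37% to 44.94% GC (21 genes) and -0.14 at 56.6% to 62.82% (16 genes). On chromosome 19 it was -0.10 at 56.6% to 62.82% (48 genes) and -0.25 at 62.9% to 73.45% (58 genes). Whether GC bears on the lower calls of chromosome 19 was not tested. Among transcripts of 408 to 1589 bases the median log2 change was 0.43 on the segment (11 genes), against 0.07 on chromosome 9. Among those of over 3752 bases it was 0.64 (24 genes), against 0.08. Over 355 coding entries of all stretches together, the trend with length ran from -0.11 among the shortest transcripts to 0.25 among the longest. With the median of each stretch removed it ran from -0.11 to 0.10. With the median of each stretch removed, a setting added after seeing the data, 197 matched entries were called in place of 232.

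**Figure D2:**
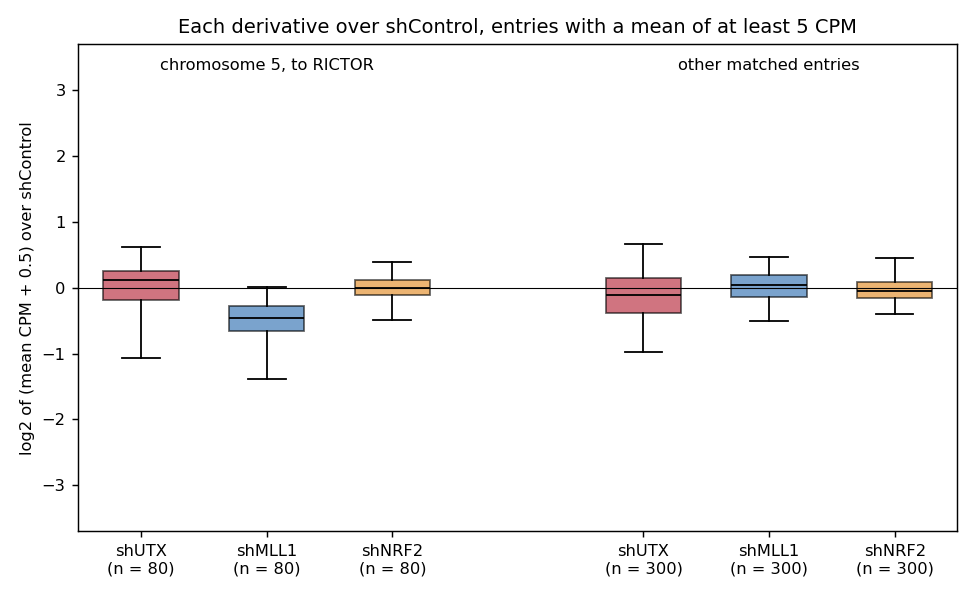
Log2 ratio of mean CPM plus 0.5 over shControl for shUTX, shMLL1 and shNRF2, in entries of chromosome 5 up to RICTOR (n = 80) and in the other matched entries (n = 300). Boxes span the quartiles with the median as a line, whiskers run from the 5th to the 95th percentile, and the shMLL1 box on chromosome 5 lies lowest, with a median of -0.46.

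Among the genes with the highest changes, several lie outside that segment or exceed its median by far. ADAMTS12, a secreted metalloprotease gene of the segment, had 194, 258 and 218 CPM in shUTX libraries, against 30.2, 35.6 and 39.3 CPM in shMLL1 libraries, a 6.58-fold difference (log2 2.72 ± 0.09, adjusted p = 4.76e-19). Its shControl libraries, at 139, 244 and 232 CPM, lay in the range of shUTX or below it. ARHGAP28 on chromosome 18 had 9.84, 10.9 and 10.7 CPM in shUTX libraries, against 1.40, 0.53 and 0.77 CPM in shMLL1 libraries. Its shControl and shNRF2 libraries stayed at or under 0.99 CPM, so shUTX is the derivative that stands apart. The same holds for PLCXD3, a phospholipase C-like gene after RICTOR, with 24.7, 34.1 and 25.9 CPM in shUTX libraries, against 2.67, 5.29 and 4.47 CPM in shMLL1 libraries (log2 2.83 ± 0.18), and at most 5.76 CPM in the other libraries. ONECUT3, a homeobox transcription factor gene on chromosome 19, had 16.9, 23.3 and 16.4 CPM in shUTX libraries, against 2.53, 4.24 and 1.85 CPM in shMLL1 libraries (log2 2.78 ± 0.22), with shNRF2 between them.

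The other genes with the highest changes were SLC9A3-AS1, DAP, TPPP, SEMA5A, SLC12A7, NIPBL-DT, BRD9 and LIFR on chromosome 5, CDKN2B and CLIC4P1 on chromosome 9 and MTCL1 on chromosome 18, at log2 1.08 to 1.98. DAP, a death-associated protein gene, had 174, 190 and 177 CPM in shUTX libraries, against 64.1, 68.3 and 60.3 CPM in shMLL1 libraries (log2 1.54 ± 0.08). SLC12A7, a potassium-chloride cotransporter gene, had 239, 296 and 261 CPM in shUTX libraries, against 99.3, 119 and 128 CPM in shMLL1 libraries (log2 1.25 ± 0.07). MTCL1, a microtubule crosslinking factor, was at 1.17 ± 0.14. CLIC4P1 is a processed pseudogene whose reads may belong to CLIC4. It was not called by DESeq2 (adjusted p = 0.068) or with all 12 libraries (0.165). SLC9A3-AS1 and SLC9A3, TPPP and CEP72, BRD9 and TRIP13, LIFR and LIFR-AS1, and CDKN2B and CDKN2B-AS1 overlap on opposite strands, and whether counting used the strand is unknown here, so the source of these reads is uncertain. For 3 genes of the segment with low levels all shMLL1 libraries had 0 counts, and these were chosen after their values were seen. The summed shUTX counts were 108 for MIR4458HG, 65 for PRLR (the prolactin receptor) and 36 for SPEF2 (a sperm flagellar gene). Against a floor of 3 counts over the group, they were at least 39.2-fold, 23.6-fold and 13.1-fold higher in shUTX. All 3 passed the filter only through the shUTX libraries, where they are high, so their place among the tested entries depends on that difference.

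**Figure D3:**
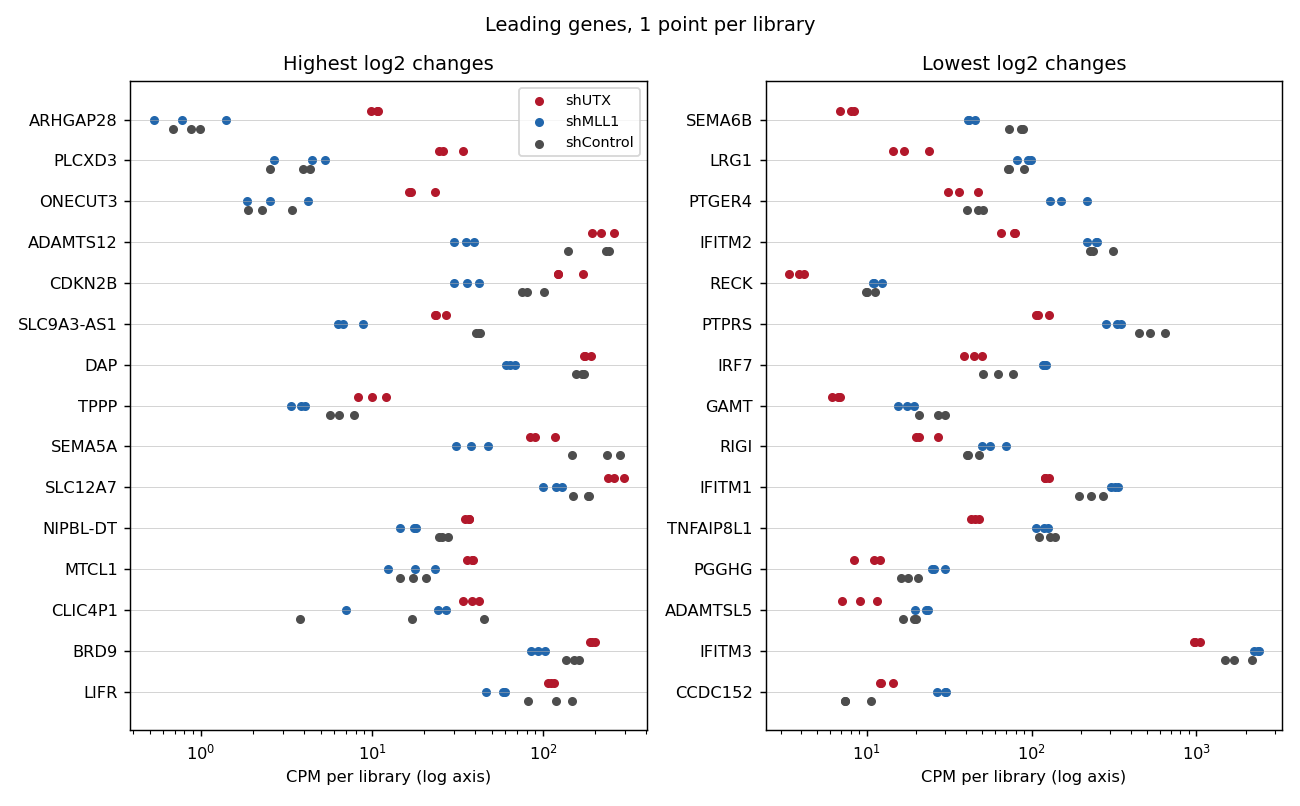
CPM per library (log axis) of the 15 genes with the highest and the 15 with the lowest log2 changes, 1 point per library, for shUTX, shMLL1 and shControl. The shUTX and shMLL1 points do not overlap for any of these genes, and the shControl points lie on the side of shMLL1 for ARHGAP28, PLCXD3 and ONECUT3 and on the side of shUTX for ADAMTS12, DAP and PTGER4.

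The genes with the lowest changes lie mostly on chromosomes 19 and 11. SEMA6B, an axon guidance gene, had 8.35, 6.89 and 7.97 CPM in shUTX libraries, against 45.1, 40.9 and 41.8 CPM in shMLL1 libraries, 5.29-fold lower (log2 -2.40 ± 0.14, adjusted p = 1.39e-13). LRG1, its neighbour, which encodes a secreted leucine-rich glycoprotein, had 16.9, 23.8 and 14.4 CPM in shUTX libraries, against 94.96, 99.7 and 81.4 CPM in shMLL1 libraries (log2 -2.28 ± 0.11). In both genes the groups lie far apart, and shControl lay above both derivatives for SEMA6B and between them for LRG1. PTPRS, a receptor tyrosine phosphatase gene, had 107, 127 and 109 CPM in shUTX libraries, against 284, 332 and 349 CPM in shMLL1 libraries (log2 -1.44 ± 0.07). PTGER4, a receptor for prostaglandin E2, had 36.2, 47.0 and 31.0 CPM in shUTX libraries, against 129, 216 and 151 CPM in shMLL1 libraries (log2 -2.06 ± 0.09). There the shControl libraries, at 40.4 to 50.5 CPM, were close to shUTX. RECK, an inhibitor of matrix metalloproteases, fell by 1.54 ± 0.23, GAMT, an enzyme of creatine synthesis, by 1.35 ± 0.18, TNFAIP8L1 by 1.31 ± 0.09, PGGHG by 1.30 ± 0.15, ADAMTSL5 by 1.21 ± 0.17 and CCDC152 by 1.11 ± 0.14 on the log2 scale. PTGER4 overlaps TTC33, CCDC152 overlaps SELENOP and TNFAIP8L1 overlaps MYDGF on the other strand. Of the 30 genes named by rank, which include IFITM1, IFITM2, IFITM3, IRF7 and RIGI, 29 kept their call under every alternative setting tried, CLIC4P1 being the exception.

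Of the few interferon-linked genes tested in the matched stretches, most were lower in shUTX than in shMLL1. Genes of the interferon response outside these stretches were not read, so the response as a whole was not assessed. Interferons are secreted by cells that sense foreign nucleic acid and switch on a set of antiviral genes. Of 10 interferon-linked genes in the matched stretches, 7 were tested, and 6 were lower and 0 higher. Of all entries 14.8% were lower and 14.7% higher, and of the 463 matched ones 108 and 124. The median log2 change of the list was -1.32, against 0.01 over all entries. IFITM1, IFITM2, IFITM3, IRF7 and SIGIRR lie on the chromosome 11 stretch, where 12 of 36 tested entries were called lower and 1 higher. Other genes called lower there include PGGHG (-1.30), ANO9 (-0.91) and HRAS (-0.63). That stretch is rich in GC (median of 63.46%), and whether GC bears on its lower calls was not tested. IFITM1, IFITM2 and IFITM3 encode membrane proteins that block the entry of viruses. The promoters of IFITM1 and IFITM3 are shown for the motif that interferon-activated factors are known to bind, GAAA and GAAA with any 2 bases between them. IFITM2 had no promoter in the set used. The sequences run from 100 bases before to 20 bases after the annotated start (RefSeq, GRCh38.p14, strand of the gene), with matches in capitals. IFITM1 lies at chr11:313940-314059 on the plus strand and IFITM3 at chr11:320841-320960 on the minus strand.
IFITM1: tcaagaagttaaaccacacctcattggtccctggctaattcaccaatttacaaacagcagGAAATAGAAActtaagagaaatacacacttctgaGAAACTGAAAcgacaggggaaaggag
IFITM3: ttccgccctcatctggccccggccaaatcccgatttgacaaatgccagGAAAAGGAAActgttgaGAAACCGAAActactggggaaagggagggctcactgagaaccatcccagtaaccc
Each printed sequence of 120 bases holds 2 matches on the strand of the gene, the last of them starting 6 and 35 bases before the start. The rest of each promoter is not part of that count. Over all 35116 promoters of 300 bases in the RefSeq table, 3.57% hold the motif on either strand. Of the tested matched entries 334 have a promoter in the table, and 13 of these hold the motif, of which 6 were called lower, 3 higher (MAP2K2 at 0.23, MRPL36 at 0.50 and OSMR-DT at 1.27) and 4 neither. A match is a description of letters and not a measured site.

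IFITM3 had 969, 1051 and 979 CPM in shUTX libraries, against 2401, 2229 and 2357 CPM in shMLL1 libraries (log2 -1.17 ± 0.07, adjusted p = 1.12e-13). IFITM1 had 121, 121 and 128 CPM in shUTX libraries, against 305, 333 and 320 CPM in shMLL1 libraries (log2 -1.32 ± 0.07). IFITM2 had 65.5, 78.2 and 79.1 CPM in shUTX libraries, against 245, 218 and 249 CPM in shMLL1 libraries (log2 -1.62 ± 0.09). The groups do not overlap for any of these close paralogs, but IFITM1 and IFITM2 share annotated sequence, so the split of reads between them is uncertain. IRF7, the transcription factor that amplifies interferon production, had 39.0, 49.95 and 44.9 CPM in shUTX libraries, against 122, 117 and 120 CPM in shMLL1 libraries (log2 -1.37 ± 0.09). RIGI, a cytoplasmic sensor of viral RNA on chromosome 9, had 20.6, 26.9 and 19.9 CPM in shUTX libraries, against 50.2, 69.7 and 56.0 CPM in shMLL1 libraries (log2 -1.33 ± 0.11). The shControl libraries lay between the derivatives for IFITM1, IFITM3, IRF7 and RIGI. SIGIRR, a negative regulator of interleukin-1 and Toll-like receptors, fell by 0.65 ± 0.09. TICAM1, the adaptor of Toll-like receptor 3, was not called, at -0.01 ± 0.07. IFNB1 and IFNK, which encode interferons, reached at most 0.18 CPM in these libraries.

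**Figure D4:**
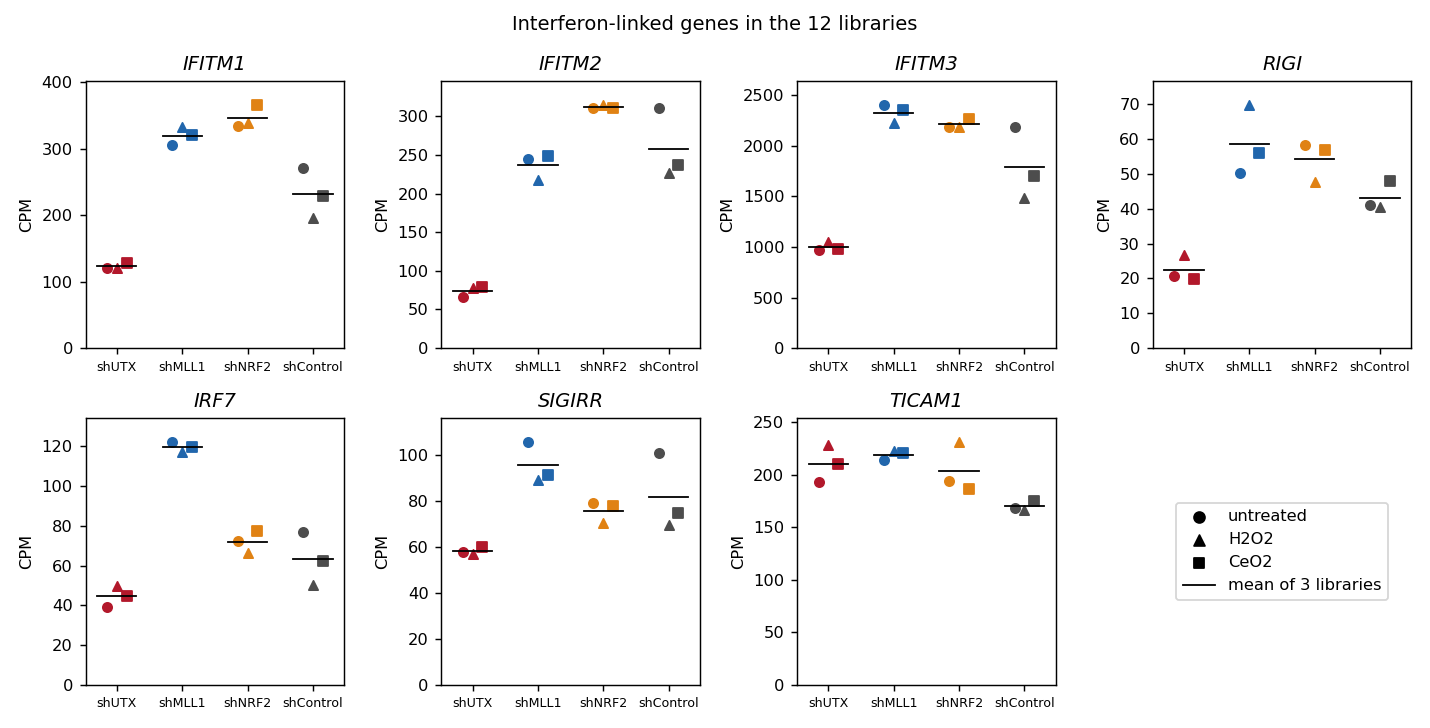
CPM of 7 interferon-linked genes in the 12 libraries, with 1 panel per gene, marker shapes for the treatments and a line at the mean of each derivative. The shUTX points lie lowest in every panel except that of TICAM1, and for IRF7 the shMLL1 points, at 117 to 122 CPM, lie highest.

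For the lists that follow, 29.5% of all entries and 50.1% of the matched ones were called, and a share near these is not a result about a list. On chromosome 19, 55 of 150 tested entries were called lower and 7 higher, which is the rate to set lower calls there against. Receptors for cytokines and inflammatory signals moved in both directions, 5 higher and 6 lower of 12 tested, with 4 of the 5 higher ones on the chromosome 5 segment. PRLR, counted as higher, reached at most 4.82 CPM and passed the filter only through the shUTX libraries. S1PR4, counted as lower, reached at most 2.47 CPM and lost its call under 10 of 15 settings. LIFR, the receptor subunit for leukemia inhibitory factor, had 115, 111 and 106 CPM in shUTX libraries, against 46.1, 58.2 and 60.1 CPM in shMLL1 libraries (log2 1.08 ± 0.09). OSMR had 815, 860 and 781 CPM in shUTX libraries, against 455, 578 and 523 CPM in shMLL1 libraries. CCL28, a mucosal chemokine, lies past RICTOR and had 56.4, 62.2 and 59.9 CPM in shUTX libraries, against 29.9, 38.6 and 30.1 CPM in shMLL1 libraries (log2 0.92 ± 0.10). IL7R, the interleukin-7 receptor chain, went the other way inside the segment, with 240, 278 and 216 CPM in shUTX libraries, against 436, 496 and 446 CPM in shMLL1 libraries (log2 -0.86 ± 0.07).

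All 4 genes of the 9p21 cell cycle inhibitor locus were higher in shUTX. CDKN2B encodes the kinase inhibitor p15, a brake on the cell cycle, and CDKN2A encodes p16 and ARF. The Polycomb mark that UTX removes is known to keep this locus silent in dividing cells. The mark was not measured here, and no cause of the differences at this locus was tested. CDKN2B had 122, 171 and 122 CPM in shUTX libraries, against 35.8, 42.4 and 30.1 CPM in shMLL1 libraries, 3.96-fold higher (log2 1.98 ± 0.09, adjusted p = 5.67e-16). All 9 libraries of the other derivatives lay below the shUTX libraries, and those of shMLL1 were the lowest. CDKN2A had 204, 234 and 222 CPM in shUTX libraries, against 160, 154 and 136 CPM in shMLL1 libraries (log2 0.61 ± 0.08). For CDKN2A it was shMLL1 that stood apart, with all its libraries below the other 9, while the shUTX libraries did not all lie above the others. MTAP, an enzyme of methionine salvage next to them, was at 0.37 ± 0.07, which lost its call when a trend with transcript length was removed (adjusted p = 0.187). The antisense transcript CDKN2B-AS1 was at 0.54 ± 0.20 (adjusted p = 0.0362) and lost its call under 8 of 20 settings, among them the omission of either untreated or either H2O2 library. The telomerase gene TERT on chromosome 5 was not called, at 0.28 ± 0.14, while CLPTM1L next to it was at 0.69 ± 0.07.

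Of 18 developmental transcription factor genes tested, 3 were higher and 7 lower in shUTX, and 8 were not called, a share near that of all matched entries (50.1%). Among those counted, TCF3 lost its call under 13 of 20 settings, CREB3 under 9 and TGIF1 under 9. ONECUT3 was the highest of them. In the IRX cluster of chromosome 5, IRX2 had 254, 242 and 238 CPM in shUTX libraries, against 164, 144 and 152 CPM in shMLL1 libraries (log2 0.73 ± 0.07). IRX1 was at -0.69 ± 0.19, which was lost by DESeq2 and without either untreated library (adjusted p up to 0.127), and IRX4 was at 0.12 ± 0.08, not called. RFX2, a factor for ciliary genes, fell by 0.50 ± 0.09 and ARID3A by 0.53 ± 0.13. TLE5, a corepressor, had 569, 614 and 591 CPM in shUTX libraries, against 895, 726 and 764 CPM in shMLL1 libraries (log2 -0.37 ± 0.07), a call lost by DESeq2 and with all 12 libraries (adjusted p up to 0.0976). Of 18 chromatin modifiers 2 were higher, BRD9, a bromodomain subunit of a SWI/SNF complex (1.11 ± 0.08), and NIPBL, the cohesin loader (0.82 ± 0.07), both on the chromosome 5 segment. Another 5 were lower, all on chromosome 19, among them HDGFL2, a reader of histone methylation (-0.43 ± 0.07). The other 4, HMG20B, MBD3, SIRT6 and MLLT1, lost their calls with all 12 libraries and with the median of each stretch removed, and HMG20B did so under 11 of 20 settings. DOT1L, a histone methyltransferase linked to MLL fusion leukemia, was at -0.02 ± 0.07, not called. Of 9 axon guidance and neurite genes 2 were higher and 4 lower. SEMA5A, a semaphorin, had 83.5, 117 and 90.0 CPM in shUTX libraries, against 30.9, 47.5 and 37.8 CPM in shMLL1 libraries (log2 1.38 ± 0.09), with shControl above both. UNC13B, a synaptic vesicle priming factor, fell by 0.69 ± 0.09.

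Of 16 mitochondrial entries 7 were higher and 1 lower, with a median of 0.05, and the treatment medians were -0.11 untreated, 0.13 with H2O2 and 0.16 with CeO2. Its transcripts come from long precursors that are cut into ribosomal RNAs and messenger RNAs. The 2 ribosomal RNAs were both higher: MT-RNR1 had 3067, 3282 and 2985 CPM in shUTX libraries, against 2193, 2019 and 1724 CPM in shMLL1 libraries (log2 0.71 ± 0.07), and MT-RNR2 was at 0.40 ± 0.07. Without either CeO2 library MT-RNR2 was not called (adjusted p up to 0.0647). Of 13 messenger RNA genes 4 were higher, all complex I subunits. The remaining complex I subunits were not called: MT-ND3 at 0.10 ± 0.07, MT-ND4 at -0.15 ± 0.07 and MT-ND4L at -0.10 ± 0.06. MT-ND2 had 5675, 6477 and 5708 CPM in shUTX libraries, against 4649, 4763 and 3861 CPM in shMLL1 libraries (log2 0.48 ± 0.07), and MT-ND1 was at 0.37 ± 0.07. MT-ND5, at 0.28 ± 0.07, was not called with all 12 libraries or without either H2O2 library (adjusted p up to 0.177). MT-ND6, at 0.22 ± 0.07, was not called by DESeq2, without the block, with all 12 libraries or when any 1 of the 4 exposed libraries was left out (up to 0.49). MT-ATP6, of the ATP synthase, was lower at -0.27 ± 0.07, not called by DESeq2, with all 12 libraries or without the H2O2 shMLL1 library (up to 0.185). The median over the 13 was -0.04.

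**Figure D5:**
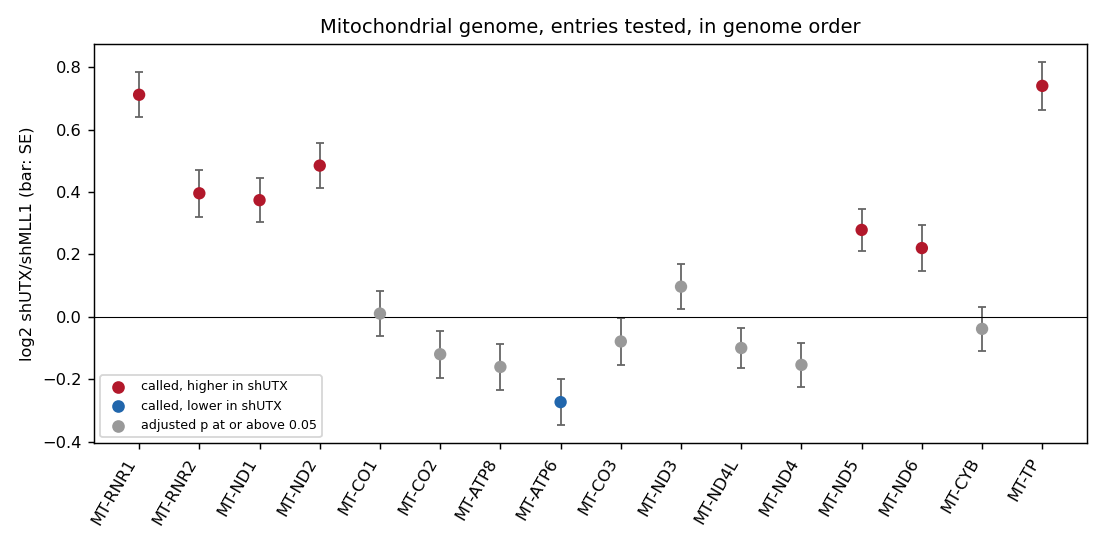
Log2 change, shUTX over shMLL1, of the 16 tested entries of the mitochondrial genome in genome order, with bars of 1 SE. The ribosomal RNAs, MT-ND1 and MT-ND2 at the start of the genome lie at 0.37 to 0.71, and the entries from MT-CO1 to MT-ND4 lie between -0.27 and 0.10.

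The called share of nuclear genes for mitochondria was near that of all matched entries (50.1%). Of 8 respiratory chain subunits 2 were higher, SDHA and NDUFS6 (0.43 ± 0.07), both on the chromosome 5 segment, and 3 were lower, all on chromosome 19. Those were ATP5F1D of the ATP synthase (-0.27 ± 0.07) and the complex I subunits NDUFS7 (-0.29 ± 0.07) and NDUFA11 (-0.24 ± 0.08), and all 3 lost their calls with all 12 libraries (adjusted p up to 0.569 over the settings). Of 11 genes of the mitochondrial ribosome, import and protein quality control 4 were higher and 2 lower, among them TOMM5 of the outer membrane translocase (0.36 ± 0.07) and CLPP, a matrix protease subunit (-0.35 ± 0.07, adjusted p = 0.0519 with the median of each stretch removed). For cytosolic ribosome genes the count was 6 higher and 2 lower of 14, with the 4 on the segment all higher. The other higher ones, RPS6 and NOL6, lost their calls under 8 and 9 of 20 settings. NSUN2, an RNA methyltransferase there, had 983, 1015 and 982 CPM in shUTX libraries, against 594, 617 and 627 CPM in shMLL1 libraries. RPL37, a ribosomal protein gene past RICTOR, was at -0.34 ± 0.06.

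Of 19 genes for mitosis, replication and DNA repair 8 were higher and 3 lower, and all 6 on the segment were higher, among them TRIP13, a checkpoint ATPase (0.72 ± 0.07), and NUP155 of the nuclear pore (0.78 ± 0.06). Of 16 proteasome, ubiquitin and chaperone genes 6 were higher, 3 of them on the segment, and 2 lower. MARCHF6, a ubiquitin ligase of the endoplasmic reticulum on the segment, was at 0.89 ± 0.07, and UBAP2 on chromosome 9 had 381, 405 and 385 CPM in shUTX libraries, against 238, 260 and 264 CPM in shMLL1 libraries (log2 0.67 ± 0.07). Of 19 genes for RNA polymerase II, Mediator and RNA processing 6 were higher, all on the segment, and 5 lower, all on chromosome 19. On that stretch 55 of 150 tested entries were called lower. Among the genes counted in these lists, ALKBH7 lost its call under 14 of 20 settings, SF3A2 under 13 of 20, PLAA under 9 of 20 and ZFR under 9 of 19. GTF2F1, a general transcription factor subunit, had 557, 556 and 577 CPM in shUTX libraries, against 831, 803 and 834 CPM in shMLL1 libraries (log2 -0.49 ± 0.06). DROSHA, which cuts microRNA precursors, was at 0.65 ± 0.07 on the segment.

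Of 16 cytoskeleton genes 7 were higher, 3 of them on the segment, and 5 lower, against 14.7% and 14.8% of all entries. TLN1, which links integrins to actin, had 733, 722 and 750 CPM in shUTX libraries, against 913, 981 and 1142 CPM in shMLL1 libraries (log2 -0.40 ± 0.07). TUBB6, a tubulin, fell by 0.47 ± 0.08 and RUSC2 by 1.01 ± 0.14, and MYL12A, a myosin light chain, was at 0.43 ± 0.07. Of 11 matrix, protease and junction genes 2 were higher and 3 lower, with ADAMTS12 and RECK at the ends among genes of at least 5 CPM. Of 6 ciliary genes 2 were higher, DNAH5 and SPEF2, both on the segment, and 2 lower. DNAH5 lost its call under 12 of 19 settings. SPEF2 reached at most 2.41 CPM and passed the filter only through the shUTX libraries. IFT74, of the intraflagellar transport complex, had 50.7, 41.2 and 46.3 CPM in shUTX libraries, against 94.7, 77.5 and 74.5 CPM in shMLL1 libraries (log2 -0.78 ± 0.09). Of 9 solute carriers and channels 4 were higher, all on the segment, and 2 lower, among them the scramblase-family gene ANO9 on chromosome 11 (-0.91 ± 0.09).

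Metabolic genes showed a few large single differences. Of 13 lipid genes 4 were higher and 4 lower. HMGCS1, the cholesterol synthesis enzyme past RICTOR, had 486, 470 and 493 CPM in shUTX libraries, against 241 to 271 CPM in shMLL1 libraries (log2 0.95 ± 0.07), with a shControl mean of 524 CPM. PLIN3, a coat protein of lipid droplets, had 294, 315 and 293 CPM in shUTX libraries, against 509, 438 and 500 CPM in shMLL1 libraries (log2 -0.63 ± 0.07), and PLIN4, of the same family, was at -1.98 ± 0.34 with at most 7.71 CPM in these libraries. Of 6 fucose, sialic acid and galactose enzymes 2 were higher and 2 lower. GNE, which starts the synthesis of sialic acid, had 164, 198 and 168 CPM in shUTX libraries, against 96.1, 95.6 and 89.0 CPM in shMLL1 libraries (log2 0.97 ± 0.08). Of 7 redox and iron genes 4 were higher and 0 lower, against 14.7% and 14.8% of all entries, and 2 of the 4, MTRR and NADK2, lie on the segment, where 72% of entries were called higher. ACO1, the iron regulatory protein and aconitase, had 120, 121 and 119 CPM in shUTX libraries, against 84.9, 83.3 and 88.2 CPM in shMLL1 libraries (log2 0.54 ± 0.08), and its shControl mean was above both at 170 CPM. Of 14 growth signalling genes 2 were higher and 4 lower. HRAS, the small GTPase, had 239, 238 and 273 CPM in shUTX libraries, against 434, 353 and 416 CPM in shMLL1 libraries (log2 -0.63 ± 0.07).

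Of 6 tested epidermal barrier genes 2 were higher and 1 lower. PKP3, a desmosome protein of keratinocytes, had 1563, 1587 and 1597 CPM in shUTX libraries, against 1862, 1716 and 1814 CPM in shMLL1 libraries, and was not called (log2 -0.13 ± 0.07, adjusted p = 0.142). TINCR, a gene induced in epidermal differentiation, had 29.1, 49.1 and 28.2 CPM in shUTX libraries, against 22.8, 28.6 and 21.4 CPM in shMLL1 libraries. The call of TINCR (0.58 ± 0.12) was lost without either H2O2 library (adjusted p up to 0.0736), and its groups overlap. Of the keratinocyte markers inside the stretches PKP3, AQP3, TINCR and TJP3 had reads and CCL27 had 0 counts, and the summed level was 1825 to 1900 CPM in shUTX libraries and 2013 to 2183 CPM in shMLL1 libraries. The 3 tested of 5 blood markers were all lower, against 14.8% of all entries. The call of S1PR4 (edgeR adjusted p = 0.0499) was lost under 10 of 15 settings. The 5 summed to 401 to 488 CPM in shUTX libraries and 777 to 920 CPM in shMLL1 libraries. Nearly all of that was IL7R and FYB1, and CD72, PAX5 and S1PR4 together gave 1.21 to 1.38 CPM in shUTX libraries and 1.41 to 2.65 CPM in shMLL1 libraries. Of 5 neural markers ELAVL2 was tested and not called (0.13 ± 0.09), and the other 4 summed to at most 1.23 CPM in any of the 6 libraries. The hypoxia genes CA9 and MIR210HG were low in both derivatives. CA9 had 0.56, 0.86 and 1.38 CPM in shUTX libraries, against 2.67, 1.76 and 2.31 CPM in shMLL1 libraries (log2 -1.18 ± 0.45, adjusted p = 0.0485), a call lost under 12 of 18 settings, and MIR210HG was not called (-0.82 ± 0.33). With bulk RNA, fewer cells with a transcript and less of it per cell cannot be told apart.

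Among the 209 called matched entries with a mean of at least 5 CPM, the side on which the shControl mean lay differed by region. On the chromosome 5 segment, 51 of 64 entries that were higher in shUTX had shControl nearer to shUTX. There shControl lay between the derivatives for 44, above both for 18 and below both for 2. Outside it, shControl was nearer to shMLL1 for 38 of 50 entries higher in shUTX and for 77 of 91 entries lower in shUTX. Nearer does not mean alike. For the 50, shControl lay between the derivatives in 22, below both in 23 and above both in 5. For the 91, it lay between them in 50, above both in 39 and below both in 2. These counts use log2 of mean CPM plus 0.5 and carry no test.

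Whether the difference between shUTX and shMLL1 changed with exposure was tested with H2O2 and CeO2 both counted as exposed, with 1 residual degree of freedom. Of 10015 entries 194 (1.94%) were called, 52 with a larger and 142 with a smaller shUTX-to-shMLL1 ratio in exposed libraries, and 17 of 463 matched entries were among them. A fit to all 12 libraries called 1 entry and DESeq2 1, neither of them matched, and 9 libraries without shControl gave 89. Without adjustment, p was under 0.05 for 1316 entries in the 6-library fit, 911 with all 12 and 137 in DESeq2. Of the 16 mitochondrial entries 9 were called, all upward, with a median change of 0.32 against 0.10 in the other matched entries, and these calls numbered 0 with all 12 libraries. MT-ND6 had a shUTX-to-shMLL1 log2 ratio of -0.06 untreated, 0.42 with H2O2 and 0.30 with CeO2. RICTOR had ratios of 1.115, 0.586 and 0.607 on that scale, from 285, 290 and 273 CPM in shUTX libraries against 132, 204 and 190 CPM in shMLL1 libraries; the untreated shMLL1 library is the lowest of the 6. KMT2A itself changed by -0.93 ± 0.21 (adjusted p = 0.00476). That change rests mainly on the H2O2 shMLL1 library, since the CeO2 shMLL1 library was close to the untreated one, and the pooled test does not separate the agents.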

How the data were processed

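RNA was made into libraries with a TruSeq kit, per the labels' protocols. The submitters' processing notes list Trimmomatic 0.39 for trimming, HISAT2 2.2.1, SAMtools 1.12, HTSeq 0.11.1 and the build GRCh38, with no settings, and strand use not given in the sources used here. Each deposited table holds raw counts of reads, 1 value per Ensembl gene and library. Untreated counts came from the H2O2 table, from which the CeO2 table differs in 1 cell. Positions, gene types and transcript lengths are from GENCODE 29.

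The 3 shUTX and 3 shMLL1 libraries were fitted with edgeR 4.0.16 (R 4.3.3): TMM scaling, at least 1 CPM in at least 3 libraries, treatment and derivative as terms, 2 residual degrees of freedom, two-sided quasi-likelihood test, Benjamini-Hochberg adjustment over all entries, threshold 0.05. The code was tested on simulated counts. Alternatives used DESeq2 1.42.0, limma 3.58.1 (voom), other scalings, filters and library sets, no block, and removal of a length trend. Removal of each stretch's median, of the trend within stretches and of chromosome 5 entries was added after seeing the data.

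The members, stretches and 27 gene lists were chosen with earlier results of these data known. Genes are named by rank (15 at each end of the log2 changes, among 207 called matched entries that averaged 5 CPM or more and had 1 sign in all 3 treatments) or as examples of a list. Intervals and floors cover counting error only.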

Additional observations from a re-analysis of the deposited data

Results flagged for a closer look

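The following entries were singled out because the shUTX-to-shMLL1 ratio differed between exposed and untreated libraries in a test of that difference (edgeR, 6 libraries, 1 residual degree of freedom). None of the 6 entries inside the matched stretches was called with all 12 libraries (adjusted p of 0.213 to 0.617) or by DESeq2.

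The log2 ratio was higher in exposed libraries by 0.42 ± 0.09 SE for MT-ND6 (adjusted p = 0.00572), by 0.42 ± 0.10 for TLE5 (0.00734) and by 0.40 ± 0.10 for MT-ATP8 (0.0152). MT-ND6 had 816, 853 and 805 CPM in untreated, H2O2 and CeO2 shUTX libraries, against 853, 671 and 691 CPM in shMLL1 libraries. TLE5 had 569, 614 and 591 CPM in shUTX libraries, against 895, 726 and 764 CPM in shMLL1 libraries. In both genes the 3 shUTX libraries are alike and the untreated shMLL1 library is the highest of its derivative.

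The change was -1.55 ± 0.27 for CLIC4P1, -0.57 ± 0.15 for LMBRD2 and -0.52 ± 0.11 for RICTOR. CLIC4P1, a pseudogene, had 33.8, 42.0 and 38.2 CPM in shUTX libraries, against 7.02, 27.0 and 24.4 CPM in shMLL1 libraries. In shNRF2 libraries it ran from 11.2 to 48.9 CPM, and in shControl libraries from 3.78 to 45.0 CPM. LMBRD2 had 113, 110 and 94.4 CPM in shUTX libraries, against 57.2, 84.3 and 75.7 CPM in shMLL1 libraries.

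KMT2A changed by -0.93 ± 0.21 (adjusted p = 0.00476): its shMLL1 level was 32.0 CPM untreated, 99.7 CPM with H2O2 and 35.6 CPM with CeO2. The change thus rests mainly on the H2O2 shMLL1 library, and is not shown for CeO2.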

How the results depend on the processing

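The direction and call held under most settings. Of 3064 values of 158 called genes under the alternatives, 2734 kept both, 310 lost the call and 20 changed sign. Counted without regard to sign, 77 of the genes kept their call under every setting tried. NDUFS6, TENT4A and ZNF622 are among these, but were called lower in place of higher with the median of each stretch removed. Entries called in all numbered 1522 with DESeq2 (971 without an adjusted p) and 1969 with all 12 libraries, against 2955. Leaving out 1 library gave 1978 to 2895 entries, and 181 to 225 of the matched ones, against 232. For the change with exposure the count of 194 became 89 with 9 libraries, 1 with DESeq2, 1 with all 12 libraries and 48 with no filter. The median of the chromosome 5 segment, 0.64, was 0.6051 to 0.6466 when 1 library was left out. Treatment paired the libraries of both derivatives in 3 pairs, and without this block 2400 entries (208 matched) were called. With the block, leaving out either library of a pair rests the comparison on the same remaining pairs. Those settings are therefore not separate checks, although the tallies of lost calls count each of them. With the median of each stretch removed, which lowers chromosome 5 by construction, log2 became -0.0344 for ANKH, -0.0275 for CCT5, -0.26 for DNAH5 and TENT4A, -0.0101 for LPCAT1, -0.15 for MRPL36, -0.019 for MYO10, -0.22 for NDUFS6, -0.0361 for OTULIN, -0.11 for RETREG1, -0.001 for SDHA, -0.45 for SKP2, -0.38 for SLC1A3, -0.0557 for SRD5A1, -0.12 for SUB1, 0.0074 for TCF3, -0.46 for ZFR and -0.29 for ZNF622. With the length trend removed it became -0.25 for DNAH5 and -0.0155 for ZFR. The cause of the other changes was not tested. Genes of a few CPM are limited by depth.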
